A study of Mus musculus with 2 samples.

Results

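The S100 genes encode small calcium-binding proteins, and 10 of them (S100a1, S100a4, S100a6, S100a8, S100a9, S100a10, S100a11, S100a13, S100a14 and S100a16) were followed through the transcriptomes of mouse mammary tumour cells from tumours labelled as intact or conditionally deleted for Zeb1. They were found by symbol, and all 10 were listed in both deposited tables, out of 16902 genes listed in at least 1 of them. RNA came from EpCAM-positive epithelial cells of tumours that carry polyoma middle T (PyMT), a viral oncogene, and from the same kind of cells of PyMT tumours with a conditional knockout of the transcription factor Zeb1 (PyMT;Zeb1cKO), in a study of how Zeb1 in the tumour cells acts on M2-like macrophages. There was 1 library of each genotype, the PyMT one holding 21580274 estimated counts and the knockout one 21277484. The promoters that drive the oncogene and the recombinase, the part of Zeb1 that was removed, the strain and age of the mice, and whether a library pools several tumours are details not given in the sources used here. With no replicates there is no test between the genotypes, genotype cannot be told apart from tumour, animal or preparation, and every difference below is one between these libraries.

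S100 proteins carry a pair of EF-hands, the helix-loop-helix motifs that hold calcium, and mostly work as dimers that change shape when calcium binds and then grip a target protein. Inside the cell those targets include annexins and non-muscle myosin. Several S100 proteins also leave the cell without a classical signal peptide and act on receptors such as RAGE (Ager) and Tlr4, which is why S100a8 and S100a9 are read as alarm signals in inflamed tissue and tumours. Most of the family sits in a gene cluster beside the epidermal differentiation complex.

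Each of the 10 genes was lower in the knockout library. On the scale of log2 ratios of (FPKM + 1), knockout over PyMT, where FPKM is fragments per kilobase of gene, scaled to the depth of a library, they ran from -4.30 for S100a9 to -0.33 for S100a11, with a median of -1.50. A difference of at least 2-fold lower was seen in 7 of the 10, against 8.78% of the 12653 genes compared (those that reached an FPKM of 1 in either library), and none of the 10 was 2-fold higher, against 10.2%. The 10 were chosen with earlier results of these data known. Of 2 other S100 genes that passed the filter, S100g was 2-fold higher (2.47) and S100b was within 2-fold (-0.59). A log2 ratio below 0 was found for 41.9% of all genes compared, and their median was 0.13. Among the genes past 2-fold, 53.7% were higher in the knockout library as scaled by the authors and 42.3% after scaling by the median ratio, which moved the median of all genes to 0.01 and that of the 10 S100 genes to -1.64.

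The S100 genes are short, and genes of like length and of like level are given beside them, though the part of length was not tested. The 1626 compared genes with a length between 392 and 1204 bases, the range of the 10, had a median log2 ratio of 0.19. Of them 11.6% were 2-fold lower and 13.4% 2-fold higher. The 5645 genes within the range of the mean FPKM of the 10 had a median of 0.10. Of these 8.63% were 2-fold lower and 8.61% 2-fold higher. Together the 10 genes held 25685 estimated counts in the PyMT and 12284 in the knockout library, and the count ratio was 0.485 with a 95% counting interval of 0.475 to 0.496. Count ratios here are scaled to the library totals, and their intervals cover counting error alone, not the spread between animals. Without S100a11, the most abundant of them, the summed ratio was 0.32 (0.311 to 0.33).

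**Figure D1:**
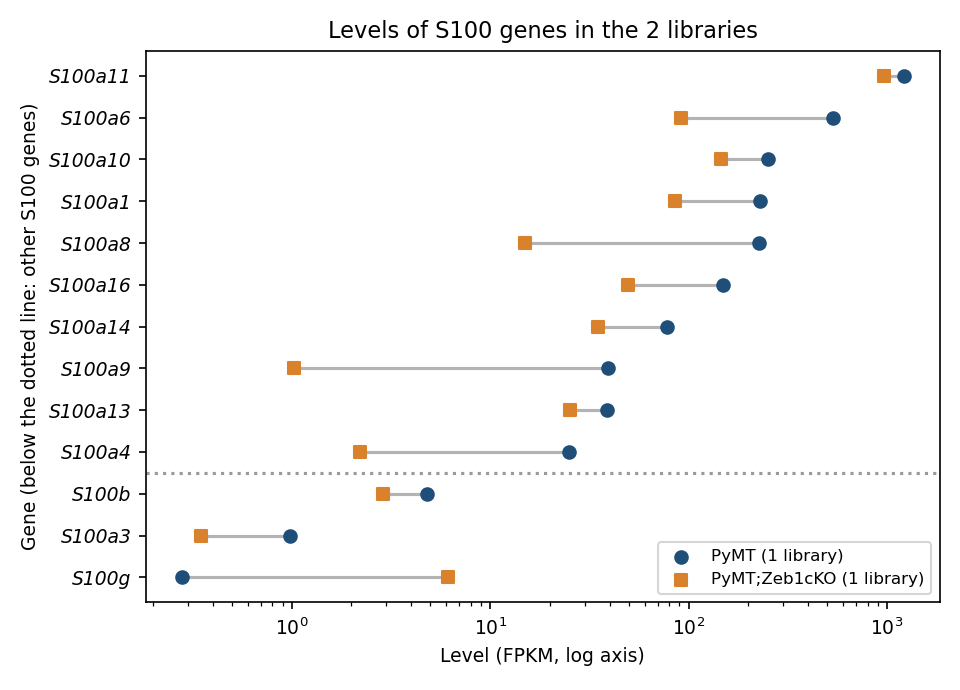
Level of each S100 gene in FPKM on a log axis, with a circle for the PyMT library and a square for the knockout library, joined by a line. All 10 genes above the dotted line lie further left in the knockout library, from a small shift for S100a11 (1213 and 963.8) to the widest for S100a9 (39.1 and 1.03), while S100g below the line lies further right (0.28 and 6.11). S100a7a, with no value in the knockout library, is not drawn.

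The lowest ratios belonged to S100a8 and S100a9, whose products pair as calprotectin, a protein that binds zinc and manganese and is the main cytosolic protein of neutrophils. S100a9 (Entrez gene 20202, chromosome 3, 90692632 to 90695721, GRCm38) had 293 counts in the PyMT and 8 in the knockout library, or 39.1 and 1.03 FPKM. Its count ratio was 0.0277 (0.0118 to 0.0553), and only 0.174% of the genes compared had a lower log2 ratio. S100a8 (Entrez gene 20201, chromosome 3, 90668978 to 90670035) had 994 and 70 counts, or 225.8 and 14.99 FPKM, with a count ratio of 0.0714 (0.0552 to 0.0911). S100a8 is the shortest of the 10, at 392 bases, and its counts and FPKM imply that the authors' scaling used an effective length of 204 bases in the PyMT and 219 in the knockout library. Its FPKM ratio was therefore 0.0664, slightly below its count ratio.

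The partners were not lower by the same factor. Within the PyMT library there were 3.39 S100a8 counts for each S100a9 count (2.98 to 3.88), and within the knockout library 8.75 (4.20 to 21.1), so the counting intervals did not overlap. Per length, S100a8 exceeded S100a9 by a factor of 5.78 in FPKM in the PyMT and 14.6 in the knockout library, the latter resting on 8 S100a9 counts. The neutrophil markers compared all had log2 ratios below 0, from -2.89 for Retnlg to -0.10 for Csf3r. Of all genes compared, 41.9% were below 0. Of 11 markers, 1 was not listed in the PyMT library and 4 were not listed in the knockout library, and of the 6 that passed the filter 4 were 2-fold lower, against 8.78% of all genes compared, and the median log2 ratio of these 6 was -1.61. The summed level of all 11 went from 300.0 to 83.13 FPKM. Without Ltf, which mammary epithelium also makes, it went from 18.85 to 1.93 FPKM. The granule gene Ngp had 106 counts in the PyMT library and was not listed in the other, Retnlg had 73 against 2, and the receptor gene Csf3r 103 against 91. The part of neutrophils in the S100a8 and S100a9 ratios was not tested, and in sorted bulk cells fewer cells of a type and less RNA per cell cannot be told apart.

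S100a4 and S100a6, which lie close together within the cluster with S100a5 between them, came next. S100a4, also known as metastasin or fibroblast-specific protein, binds the heavy chain of non-muscle myosin and is used as a marker of mesenchymal cells. It (Entrez gene 20198, chromosome 3, 90603771 to 90606045) had 175 counts in the PyMT and 16 in the knockout library, and the count ratio was 0.0927 (0.0519 to 0.155), at 25.04 and 2.22 FPKM. A gene model of the annotation, Gm42674, overlaps S100a4 and is not listed in the tables, so reads of the overlap cannot be told apart from those of S100a4. The S100a4 interval overlapped those of S100a8 and S100a9. Overlap of separate intervals does not settle whether the ratios differ beyond counting error, and they were not compared directly. S100a6, or calcyclin, a gene found through its induction in growing cells, was the second most abundant of the 10 in the PyMT library. Its counts (Entrez gene 20200, chromosome 3, 90612882 to 90624181) were 6124 and 1066, a ratio of 0.177 (0.165 to 0.188), and its level went from 535.7 to 91.88 FPKM. That moved S100a6 from rank 175 to rank 1108 by FPKM among all listed genes.

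S100a4 and S100a6 are also made by fibroblasts and macrophages, and markers of those cells went both ways between the libraries. All 8 fibroblast markers were listed in both, with a summed level of 640.8 FPKM in the PyMT and 670.8 in the knockout library. Their median log2 ratio was 0.14, and 1 gene was 2-fold lower against 1 higher. The shares of all genes compared were 8.78% and 10.2%. The lower one was Postn, at 128.5 and 33.19 FPKM, and the higher one was Lum, at 6.36 and 14.41. The 8 macrophage markers summed to 477.6 and 392.5 FPKM, and the 7 that passed the filter had a median of 0.09, with none 2-fold lower and 1 higher. That gene, Cx3cr1, had 103 and 582 counts, while Cd68 was at 59.17 and 31.67 FPKM. The 6 endothelial markers summed to 59.53 and 42.04 FPKM with a median of -0.38. No defining marker of these 3 lists was at 0. The part of these cells in the S100a4 and S100a6 ratios was not tested.

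A middle group was made up of S100a16, S100a1 and S100a14. S100a16, a widely expressed member (Entrez gene 67860, chromosome 3, 90537254 to 90543151), had 3279 counts in the PyMT and 1085 in the knockout library, or 149.8 and 49.49 FPKM, with a count ratio of 0.336 (0.313 to 0.36). S100a1, which tunes calcium cycling in heart and skeletal muscle (Entrez gene 20193, chromosome 3, 90511034 to 90514392), had 2103 and 798 counts, or 228.9 and 84.99 FPKM, with a ratio of 0.385 (0.354 to 0.418). S100a14, known from epithelia (Entrez gene 66166, chromosome 3, 90526856 to 90528837), had 1487 and 675 counts, or 77.58 and 34.96 FPKM, with a ratio of 0.46 (0.42 to 0.505). The intervals of S100a16 and S100a1 overlapped, while that of S100a14 lay just above S100a1.

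Markers of skeletal muscle, where S100a1 is abundant, were present in the PyMT library and nearly gone from the knockout library. Their summed level over 6 genes went from 203.8 to 2.49 FPKM. All 5 that passed the filter were 2-fold lower, against 8.78% of all genes compared. Actin of skeletal muscle (Acta1) was at 112.1 and 0.25 FPKM. S100a1 was at 228.9 and 84.99 FPKM, and the part of muscle in its ratio was not tested. Epithelial markers were lower as well. All 8 were listed in both libraries, and 4 were 2-fold lower, against the same 8.78%. Their median log2 ratio was -0.97, and their sum went from 6884 to 3210 FPKM. Epcam, the gene of the surface protein used for sorting, was at 740.8 and 479.7.

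S100a10, S100a13 and S100a11 lay within 2-fold. S100a10, or p11, has lost calcium binding in evolution and works as the light chain of annexin A2, holding plasminogen at the cell surface. It (Entrez gene 20194, chromosome 3, 93555080 to 93564643) had 2508 counts in the PyMT and 1481 in the knockout library, for a ratio of 0.599 (0.561 to 0.639), with 252.2 and 146.1 FPKM. S100a13, which helps to export the growth factor Fgf1 (Entrez gene 20196, chromosome 3, 90514435 to 90524581), had 479 and 310 counts, a ratio of 0.656 (0.567 to 0.759), with 38.68 and 25.18 FPKM. S100a11, a partner of annexin A1 (Entrez gene 20195, chromosome 3, 93520488 to 93526287), had 8243 and 6775 counts, a ratio of 0.834 (0.807 to 0.861), with 1213 and 963.8 FPKM. The intervals of S100a10 and S100a13 overlapped, and that of S100a11 lay above both. In no member did the counting interval reach a ratio of 1.

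**Figure D2:**
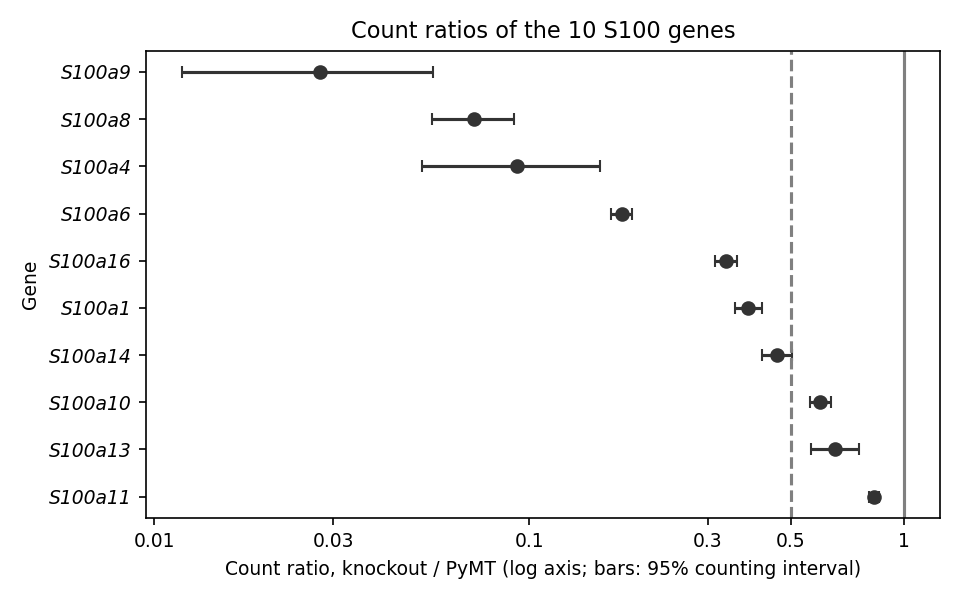
Count ratio of each gene, knockout over PyMT library, on a log axis with 95% counting intervals, the solid line marking equal counts and the dashed line a ratio of 0.5. All 10 intervals lie left of the solid line, and the intervals of S100a9, S100a8 and S100a4 overlap one another.

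These unequal ratios shifted the makeup of the family. S100a11 supplied 43.5% of the summed FPKM of the 10 genes in the PyMT and 68.1% in the knockout library. The share of S100a6 went from 19.2% to 6.49%, that of S100a8 from 8.10% to 1.06%, and that of S100a10 from 9.05% to 10.3%. By level in the PyMT library the order began with S100a11, S100a6, S100a10, S100a1 and S100a8, and in the knockout library with S100a11, S100a10, S100a6, S100a1 and S100a16. S100a8 thus left the first 5, from rank 427 to rank 5462 among all listed genes, while S100a11 stood at rank 93 and rank 110.

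Ratios along the chromosome are described here without a test of position. A stretch of chromosome 3 from 90511034 to 90695721 holds 12 annotated S100 genes, of which 8 are among the 10, and the pair S100a11 and S100a10 lies apart, between 93520488 and 93564643. At one end of the first stretch S100a1, S100a13, S100a14 and S100a16 had log2 ratios between -1.58 and -0.60. About in its middle S100a4 and S100a6 were at -3.02 and -2.53, and at the other end S100a8 and S100a9 were at -3.83 and -4.30. Of the 11 protein-coding genes without an S100 name inside or within 100 kb of these stretches, 4 passed the filter on FPKM, with a median of 0.54. Ints3, of the Integrator complex, was higher in the knockout library, at 8.72 and 27.65 FPKM, and Ilf2, an RNA-binding protein gene, was at 30.76 and 51.89. Chtop, an mRNA export factor gene next to S100a1, was at 52.7 and 66.85, and Snapin, a vesicle fusion gene, was at 31.16 and 21.3. Ilf2 and Snapin overlap and had counts that were not whole numbers, so their ratios are uncertain. All 4 lie on the S100a1 side of the first stretch. Beyond S100a9, and around S100a11 and S100a10, no neighbour passed the filter, which leaves those parts without a comparison.

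**Figure D3:**
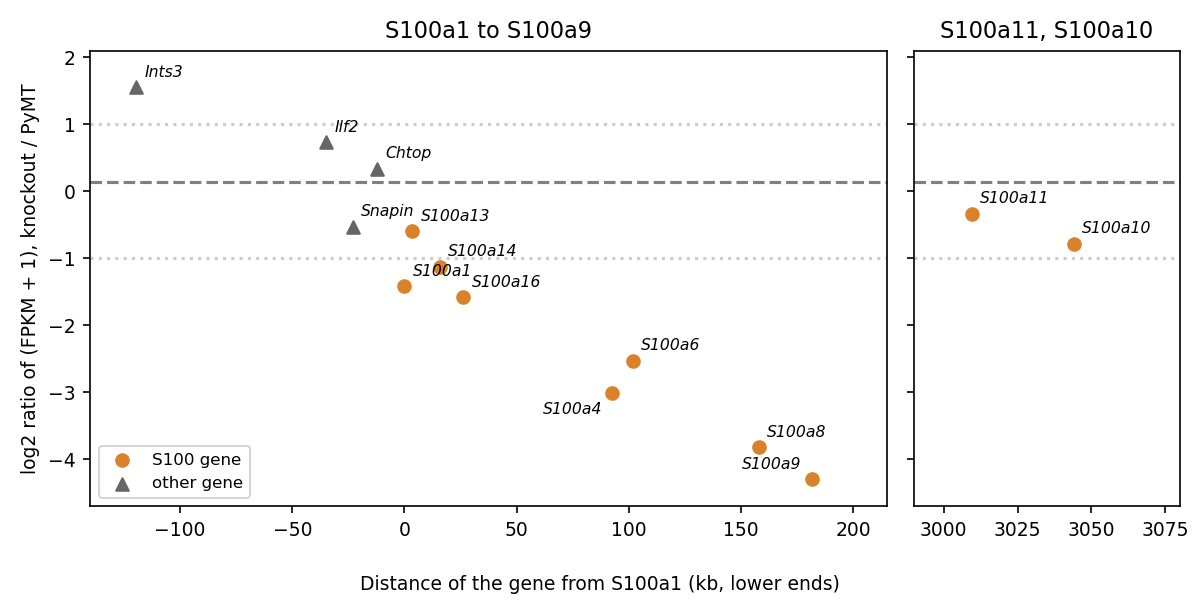
log2 ratio of (FPKM + 1), knockout over PyMT, against the distance in kb from S100a1 along chromosome 3, with circles for S100 genes, triangles for other genes, a dashed line at the median of all genes compared and dotted lines at 2-fold. The circles lie lower towards the S100a9 end (-4.30) than near S100a1 (-1.42), and the triangles to the left lie between -0.53 and 1.56.

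Promoters of genes with extreme ratios are shown here, and the part of promoter sequence in the ratios was not tested. Windows of 250 bases before the RefSeq start were taken from RefSeq promoters (GRCm38.p6), which hold 9 windows for 8 of the 10 genes. The gene coordinates given above are those of the GENCODE annotation, and the starts differ for some genes. The windows shown for S100a8 and S100a11 therefore run into the gene as placed above. S100a10 and S100a14 had no entry. The 4 windows below belong to the 3 genes with the lowest ratios and to S100a11, with the highest, and capitals mark matches to the motifs described after them.
S100a9 (chr3:90695722-90695971, minus strand): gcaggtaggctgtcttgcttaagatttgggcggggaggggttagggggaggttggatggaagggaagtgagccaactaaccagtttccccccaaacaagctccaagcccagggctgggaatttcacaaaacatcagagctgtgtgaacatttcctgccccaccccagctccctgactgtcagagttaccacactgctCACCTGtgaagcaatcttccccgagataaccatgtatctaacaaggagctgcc
S100a8 (chr3:90668821-90669070, plus strand): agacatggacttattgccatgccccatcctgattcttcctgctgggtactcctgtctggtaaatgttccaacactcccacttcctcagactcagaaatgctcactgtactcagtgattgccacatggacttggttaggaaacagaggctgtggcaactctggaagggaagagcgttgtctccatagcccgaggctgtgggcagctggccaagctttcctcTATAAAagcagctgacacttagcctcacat
S100a4 (chr3:90603520-90603769, plus strand): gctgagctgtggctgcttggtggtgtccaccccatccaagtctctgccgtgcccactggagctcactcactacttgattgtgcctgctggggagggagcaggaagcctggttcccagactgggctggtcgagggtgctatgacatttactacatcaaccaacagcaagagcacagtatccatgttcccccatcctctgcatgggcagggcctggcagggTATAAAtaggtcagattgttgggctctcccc
S100a11 (chr3:93520246-93520495, plus strand): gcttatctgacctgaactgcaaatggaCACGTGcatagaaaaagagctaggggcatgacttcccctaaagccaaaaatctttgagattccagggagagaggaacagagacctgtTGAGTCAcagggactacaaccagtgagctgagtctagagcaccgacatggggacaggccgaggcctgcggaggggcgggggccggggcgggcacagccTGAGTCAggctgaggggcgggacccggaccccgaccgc
The sequence CACCTG, the E-box that Zeb1 binds, was searched on both strands and was found in 2 of the 9 windows, in S100a9 at position -53 from the start and in 1 of the 2 windows of S100a16, against 17.3% of 32536 distinct windows of all genes. TGANTCA, the site of AP-1, was also searched on both strands. It occurred in S100a11, at -136 and -38, and in the other window of S100a16, against 6.73% of all windows. ACGTG, the core of hypoxia response elements, was in S100a11 alone, on both strands of 1 overlapping CACGTG, against 16.7%. TATAAA, read on the strand of the gene, was in S100a4 at -31 and in S100a8 at -30, against 7.55%. The windows of S100a1, S100a13 and S100a6 held none of the 4 motifs. S100a1 and S100a13 are read in opposite directions, with 104 bases between their RefSeq starts. Their count ratios were 0.385 and 0.656, with intervals that did not overlap. These matches describe letters in these windows and not binding.

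S100 genes outside the 10 were low, and S100g differed in direction. S100g, the vitamin D-dependent calbindin of gut and uterus, had 2 counts in the PyMT and 43 in the knockout library, for a ratio of 21.8 (5.68 to 186), with 0.28 and 6.11 FPKM. S100b, known from glia, had 155 and 92 counts, or 4.83 and 2.88 FPKM, with a ratio of 0.602 (0.46 to 0.784). S100a3, which lies beside S100a4, had 11 and 4 counts, a ratio of 0.369 whose interval of 0.0856 to 1.24 included equal counts. S100a7a, related to the human psoriasin, had 3 counts in the PyMT library and was not listed in the knockout library. S100a5, S100a7l2, S100z and S100a2 were listed in neither table, the last of them looked up after the values were seen. Of the 4 listed, 2 passed the filter, 1 within 2-fold and 1 higher, beside 10.2% of all genes compared that were 2-fold higher.

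Of 15 genes for proteins that S100 dimers bind inside the cell, 3 were at least 2-fold lower and 2 at least 2-fold higher, beside 8.78% and 10.2% of all genes compared, and the median log2 ratio was -0.02. Annexin A2 (Anxa2), the partner of S100a10, had 18383 and 9931 counts, a ratio of 0.548 (0.535 to 0.561), with 714.8 and 386.6 FPKM. There were 0.136 S100a10 counts for each Anxa2 count in the PyMT library (0.131 to 0.142) and 0.149 in the knockout library (0.141 to 0.158), and these intervals overlapped at their edges. The pair of S100a11 and annexin A1 (Anxa1) shifted further. Anxa1 had 2774 and 775 counts, a ratio of 0.283 (0.261 to 0.307), and S100a11 counts for each Anxa1 count were 2.97 (2.85 to 3.10) in the PyMT and 8.74 (8.11 to 9.43) in the knockout library. Ahnak, a giant scaffold held by S100a10 and annexin A2, was at 63.71 and 10.16 FPKM. Its deposited length differed between the tables (8188 and 14905 bases), and its count ratio of 0.294 (0.282 to 0.305) does not depend on that. Cacybp, the calcyclin-binding protein, was among the 2 higher genes, at 10.83 and 24.86 FPKM. Fgf1, the cargo of S100a13, was the other, with 77 and 478 counts, a ratio of 6.30 (4.94 to 8.12).

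Among receptors for extracellular S100 proteins and genes of the plasmin system, 12 of the 14 genes on the list were compared. Of these, 6 were 2-fold lower, against 8.78% of all genes compared, and none was 2-fold higher, against 10.2%. Their median log2 ratio was -1.01. Plaur, the urokinase receptor, had the lowest log2 ratio (-2.50), with 610 and 84 counts, or 21.44 and 2.96 FPKM. Mcam, an adhesion molecule that binds the S100a8 and S100a9 dimer, was at 95.91 and 33.63 FPKM. The highest were Plgrkt, a plasminogen receptor, at 21.36 and 36.48 FPKM, and Ly96, the Tlr4 coreceptor, at 4.82 and 6.46. Tlr4 itself was at 2.68 and 1.49 FPKM, with a count ratio of 0.552 (0.471 to 0.647). Ager, the gene of RAGE, was listed at 7.34 and 2.19 FPKM, but its counts were not whole numbers and its deposited length differed between the tables, so its ratio is uncertain. Bsg, a receptor of S100a9 singled out once its values were known, was at 1417 and 509.4 FPKM. The cells these receptor reads came from are not known.

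Of 12 genes of transcription factors known to act on S100 genes, 1 was lower and 2 were higher by 2-fold. The shares of all genes compared were 8.78% and 10.2%, and the median log2 ratio of the 12 was -0.44. Klf5 was the lowest, at 25.72 and 7.35 FPKM, followed by Twist1 at 3.58 and 1.58. Snai2 (3.28 and 9.45 FPKM) and Cebpa, a myeloid and epithelial differentiation factor (36.44 and 74.38), were the highest. Zeb1 itself had 96 counts in the PyMT and 38 in the knockout library, for a ratio of 0.401 (0.268 to 0.59). These counts cover the whole gene and not the deleted part alone. At 0.79 and 0.32 FPKM Zeb1 did not pass the filter, and it was looked up after the values were seen.

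Other genes with EF-hands are described beside the S100 genes, and the part of calcium binding in the S100 ratios was not tested. Of the 26 compared, out of 31 on the list, 3 were lower and 3 higher by 2-fold. The shares of all genes compared were 8.78% and 10.2%. The median of the 26 was 0.14, beside the 0.13 of all genes compared. Ncald, which encodes neurocalcin delta, was at 4.78 and 56.58 FPKM, and Efhd1, a mitochondrial calcium sensor gene, was at 1.61 and 15.04. Efhd2, an actin-binding relative, was lower, at 171.0 and 77.38, and Hpcal1 was at 67.63 and 26.05 with counts that were not whole numbers.

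**Figure D4:**
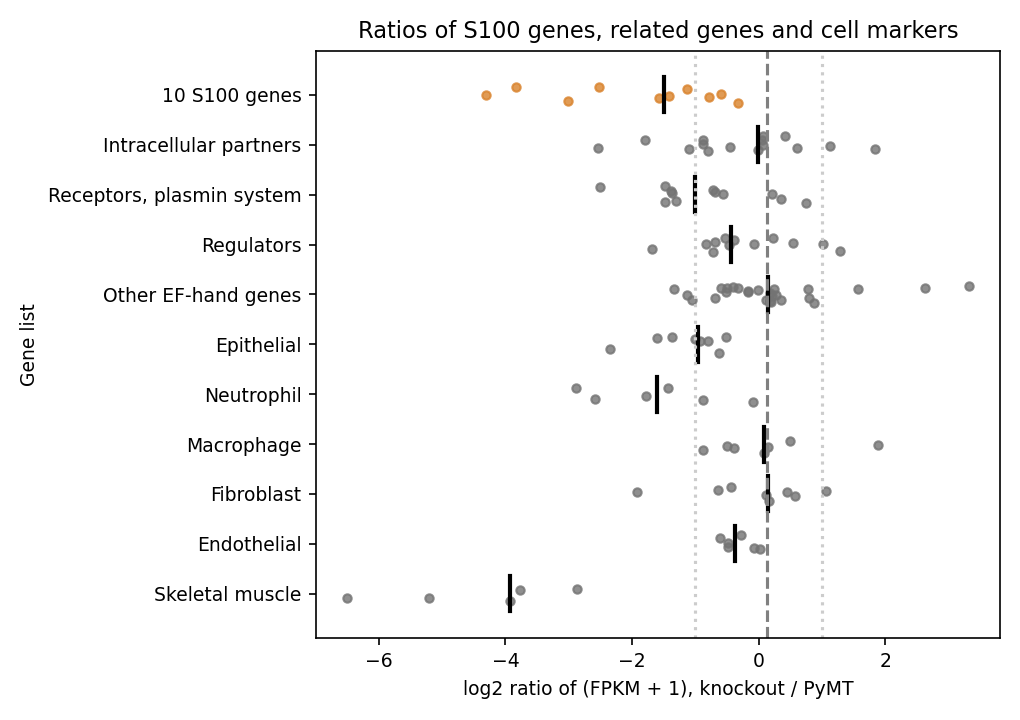
log2 ratio of (FPKM + 1), knockout over PyMT, of each compared gene by list, with black bars for list medians, a dashed line at the median of all genes compared and dotted lines at 2-fold. The 10 S100 genes (median -1.50) all lie left of 0, receptor, epithelial, neutrophil and muscle genes have medians of -1.01, -0.97, -1.61 and -3.94, and other EF-hand genes centre on 0.14.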

How the data were processed

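For each library the authors deposited 1 table with an expected count (an estimated count) and an FPKM value per gene, per the file headers. The submitters' processing notes list the mm10 build, RSEM 1.2.8, HISAT2 2.1.0, DESeq and Bowtie2 2.2.5, without roles; annotation and strandedness stand as not given in the sources used here, so reads of overlapping genes cannot be told apart. The tables list genes with values above 0, and a gene missing from one was counted as 0. All 10 S100 genes had whole counts within 1e-09.

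The log2 ratio was log2 of (FPKM + 1) in the knockout over the PyMT library, for genes that reached an FPKM of 1 in either library. Expected counts were rounded, and count ratios, scaled to library totals, carry exact 95% Clopper-Pearson intervals. Each group has 1 library, so no test was made. Effective length was computed from count, FPKM and library total.

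The 10 genes, the related lists and the marker lists were chosen with earlier results of these data known. Named from each list were up to 2 genes with the highest and 2 with the lowest ratio, plus Anxa1, Anxa2, Ager and Tlr4 and any gene said to be chosen otherwise. Neighbours are protein-coding genes of GENCODE on GRCm38. Steps were tested on simulated counts. Python 3.11.15, numpy 2.4.6, pandas 2.3.3, scipy 1.17.1, matplotlib 3.10.9 were used, and edgeR 4.0.16 in R 4.3.3 gave the TMM factors.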

Additional observations from a re-analysis of the deposited data

How the results depend on the processing

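With another pseudocount (0.1), scaling by the median ratio, TPM, CPM, or CPM with TMM factors, 7 of the 10 S100 genes stayed at least 2-fold lower and none was higher, and all 50 single-gene values were below 0. The median log2 ratio was -1.64 with the median ratio, where all genes shifted with it. It was -1.27 without S100a8 and S100a9, of which 5 of 8 genes were 2-fold lower. At 3-fold, 4 genes were lower, and at 1.5-fold, 9. With every S100 gene above the filter, an alternative chosen after seeing the data, 12 genes had a median of -1.27, with 7 lower and 1, S100g, higher. The S100a9 log2 ratio ranged from -5.12 to -3.41, resting on 8 counts in the knockout library, and that of S100a4 from -3.44 to -2.38, resting on 16. The order turned on the log2(CPM + 1) scale, where S100a8 (-3.46) lay below S100a9 (-3.41) and S100a6 (-2.48) below S100a4 (-2.38), and likewise with TMM factors (-3.59 and -3.50, -2.63 and -2.48). No paired analysis was possible because each group has 1 library.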

Other observations

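The fused-type S100 genes, large structural proteins of skin and hair with an S100 domain at one end, were nearly silent. Of 7 such genes Tchh was the only one listed, with 5 counts in the PyMT and 28 in the knockout library, and it did not pass the filter. The 7 keratinocyte and squamous markers were all listed in the knockout library, 6 of them also in the PyMT one, with summed levels of 654.6 and 393.1 FPKM carried by Krt5 (397.4 and 239.0) and Krt14 (254.2 and 148.7), which basal mammary cells also make. The 4 that passed the filter lay within 2-fold, with a median log2 ratio of -0.13.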
